A study of Mus musculus with 96 samples.

Results

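The 10 genes described here are immediate early genes that encode no Fos or Jun protein, and they were chosen by name: Egr1, Klf4, Klf6, Nr4a1, Dusp1, Dusp2, Zfp36, Btg2, Ier2 and Ier3. They are 10 of the 38406 genes in the count table, and all 10 had counts. The cells were single HSC1 cells from the bone marrow of C57BL/6 mice, 9 to 12 weeks old per the labels. FACS took cells positive for c-Kit, Sca-1 and CD150 and negative for lineage markers, CD34, Flt3 and CD48. There was 1 group of 96 cells with no treated or mutant group, and 92 cells were kept after technical filters. No source used here names the mouse behind a cell, so the cells were treated as 1 sample of a population. All of them went through marrow isolation, antibody staining and sorting before lysis, and cells that did not go through these steps were not analysed here.

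Immediate early genes are transcribed within minutes of a signal without new protein synthesis, mostly through MAP kinase, SRF and CREB pathways, and their RNAs are usually short lived. Many encode transcription factors that start a second wave of expression. Others encode proteins that switch the signal off again, such as phosphatases of MAP kinases and proteins that destroy AU-rich RNAs. In hematopoietic stem cells several of them, among them Egr1 and Nr4a1, are known as regulators of quiescence.

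Gene counts per kept cell were 739093 to 3473151 (median 1599930), over 4945 to 8727 detected genes. Values are normalized counts, that is read counts divided by the size factor of the cell. The counts carry no molecular identifiers. Intervals on the share of counted cells are binomial over the 92 cells. They cover neither variation between mice nor technical noise within a cell. By counting error alone, a value of 0 in 1 cell allows up to 3 counts, which was 1.31 to 5.72 normalized counts over the cells. ERCC spike-ins, RNAs added to each well, varied between cells by more than counting error, so a 0 can stand for more than this. Of the 15 stem cell markers, Kit had counts in 91 cells, Slamf1 (CD150) in 58 and Procr in 85. Of the 3 genes whose proteins the gate excluded, Cd48 was at 0 in every kept cell, while Cd34 was counted in 53 cells and Flt3 in 17. Of 12 granulocyte and monocyte markers, Mpo, Elane and Ctsg were at 0 in every kept cell, while Lyz2 was counted in 92 cells (mean 978) and Prtn3 in 90 (mean 413). Of 9 T and NK cell markers, Cd3e was at 0 and Lck was counted in 24 cells.

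The members are compact genes in the GENCODE M21 annotation of GRCm38. Their median span was 4556.5 bp with 3 exons, against 18245 bp and 7 exons over 21037 protein-coding genes. Promoters were read from RefSeq (GRCm38.p6) for 8 of the 10 members. The promoter set used held no entry for Ier2, and the promoter of Egr1 is not reported here. The cyclic AMP response element TGACGTCA, searched on both strands from 250 bases before to 50 bases after the start site, was in the promoters of Dusp1 and Btg2, 2 of the 8, against 1.79% of 32851 promoters. Its half-site TGACG, which also lies within the full element, was in 5 of the 8 (Dusp1, Dusp2, Nr4a1, Btg2 and Klf4), against 20.8% of all. A CArG box, the element known to bind SRF, was found in Zfp36 alone of the 8, against 1.63% of all. The GC box GGGCGG was in 8 of 8, against 35.7%, in promoters with a median GC content of 68.8%, against 52.7% over all promoters. The E-box CACGTG was in 4 of the 8, against 7.15%, and the Ets element CCGGAA in 2, against 14.9%. The AP-1 elements TGACTCA and TGAGTCA were in 0 of the 8, against 5.20%, as were the Egr element GCGTGGGCG, against 0.612%, and TATAAA, against 13.6%. The 250 bases before the start site of the 4 members with a full cyclic AMP element, several half-sites or the CArG box are shown, with cyclic AMP elements, half-sites and the CArG box in capitals, since these are elements through which this gene class is known to be induced. The Nr4a1 start site lies inside the annotated gene, at one of several starts. The start sites used for Dusp1 and Zfp36 also lie inside the GENCODE spans of these genes. A match is a description of the letters in this window.
Dusp1 (chr17:26508473-26508722, minus strand): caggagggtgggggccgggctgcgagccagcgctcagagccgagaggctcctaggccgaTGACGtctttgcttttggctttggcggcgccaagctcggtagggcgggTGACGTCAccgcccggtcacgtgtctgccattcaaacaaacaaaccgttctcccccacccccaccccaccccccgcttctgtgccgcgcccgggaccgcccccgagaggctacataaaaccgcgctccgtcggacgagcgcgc
Btg2 (chr1:134079156-134079405, minus strand): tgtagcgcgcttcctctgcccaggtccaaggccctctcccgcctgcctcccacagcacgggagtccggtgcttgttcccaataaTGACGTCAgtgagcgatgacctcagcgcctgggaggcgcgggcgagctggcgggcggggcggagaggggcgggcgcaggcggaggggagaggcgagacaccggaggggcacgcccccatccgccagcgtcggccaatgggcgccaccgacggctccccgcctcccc
Nr4a1 (chr15:101266596-101266845, plus strand): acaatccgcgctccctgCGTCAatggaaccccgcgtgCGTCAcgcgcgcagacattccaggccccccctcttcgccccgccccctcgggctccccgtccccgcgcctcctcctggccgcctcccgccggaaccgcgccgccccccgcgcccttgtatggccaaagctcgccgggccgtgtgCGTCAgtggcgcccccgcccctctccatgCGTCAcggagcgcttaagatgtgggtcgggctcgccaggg
Zfp36 (chr7:28379229-28379478, minus strand): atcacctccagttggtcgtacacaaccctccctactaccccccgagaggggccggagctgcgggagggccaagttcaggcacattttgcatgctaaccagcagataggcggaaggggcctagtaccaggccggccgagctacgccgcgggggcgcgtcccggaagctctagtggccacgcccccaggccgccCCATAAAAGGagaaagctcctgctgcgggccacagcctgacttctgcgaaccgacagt

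The 3′ UTRs were searched for AU-rich motifs, which mark short-lived RNAs and are known to be bound by Zfp36 itself. The pentamer ATTTA was in 9 of 10 members, Ier2 being the exception, against 63.9% of protein-coding genes. The longer TATTTAT was in 6 of 10, against 26.9%. Ier3 had 4 copies, Dusp1 and Zfp36 had 3 each, Klf6 had 2, and Dusp2 and Btg2 had 1 each. The copy nearest to the stop codon in each is shown in the sense of the RNA, written with T, with TATTTAT in capitals (GRCm38).
Ier3 (chr17:35822485-35822505, plus strand): taattaaTATTTATgtattta
Dusp1 (chr17:26506163-26506183, minus strand): tggtcctTATTTATttaacac
Zfp36 (chr7:28376970-28376990, minus strand): ggcccttTATTTATgacgact
Klf6 (chr13:5868494-5868514, plus strand): cgtctctTATTTATgccttga
Dusp2 (chr2:127338308-127338328, plus strand): cactttaTATTTATatagaac
Btg2 (chr1:134077253-134077273, minus strand): gaagagcTATTTATacatgtt

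Egr1, Klf4, Klf6 and Nr4a1 encode transcription factors. Egr1 (chr18:34859823-34864984), a zinc finger factor, had normalized counts of 0 to 4000 with a median of 208, and a mean of 559 ± 789 (SD, n = 92 cells). It was counted in 83 of 92 cells (90.2%, exact Clopper-Pearson 95% interval 82.2 to 95.4%), though in 12 of these with fewer than 10 counts. Most cells held Egr1, and the 9 highest cells carried 41.4% of its normalized counts.

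Klf6 (chr13:5861482-5870394), a Krüppel-like factor, ranged over 0 to 1566 with a median of 117, and averaged 222 ± 301 in 74 counted cells of 92 (SD over 92 cells). Nr4a1 (chr15:101254269-101274795), an orphan nuclear receptor also called Nur77, was counted in 32 cells (34.8%, 25.1 to 45.4%), with a median of 0, a highest value of 749.6 in cell 89 and a mean of 42.4 ± 110. Klf4 (chr4:55527143-55532466), known as a reprogramming factor, was counted in 13 cells (14.1%, 7.74 to 22.95%), with a median of 0, a highest value of 271.5 and a mean of 6.41 ± 30.9. Klf4 and Nr4a1 were thus at 0 in most cells, which at this depth does not show that the RNA was absent there.

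Dusp1 and Dusp2 encode dual-specificity phosphatases that remove the activating phosphates of MAP kinases. Dusp1 (chr17:26505590-26562128) ranged over 0 to 3767 with a median of 269 and averaged 568 ± 770, with counts in 79 cells (85.9%, 77.05 to 92.3%). Its annotated span includes a long transcript that overlaps Ergic1 on the other strand, and the library kit does not mark strand. Dusp2 (chr2:127336159-127338376) reached 6595 normalized counts in cell 89, followed by 4363 in cell 72, against a median of 196 and a mean of 442 ± 890. It was counted in 73 cells (79.3%, 69.6 to 87.1%), and the 9 highest cells carried 52.5% of its normalized counts.

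Zfp36 (tristetraprolin), which promotes decay of AU-rich RNAs, and Btg2, an antiproliferative partner of the deadenylation machinery, act on RNA. Zfp36 (chr7:28376784-28380253) was counted in more cells than any other member, 87 of 92 (94.6%, 87.8 to 98.2%), with values of 0 to 3591, a median of 330 and a mean of 567 ± 715. The antisense gene Gm44710 overlaps it, and their reads cannot be told apart without strand. Btg2 (chr1:134075170-134079120) was counted in 30 cells (32.6%), with a median of 0, a highest value of 609 in cell 88 and a mean of 41.6 ± 120. Its 9 highest cells carried 79.9% of its normalized counts.

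Ier2, a nuclear immediate early protein, and Ier3 (IEX-1), a regulator of cell survival, share a naming convention and not a protein family. Ier2 (chr8:84661331-84662852) was counted in 85 cells (92.4%, 84.9 to 96.9%), with values of 0 to 4461, a median of 360 and a mean of 563 ± 720. Ier3 (chr17:35821684-35822923) was counted in 30 cells (32.6%, 23.2 to 43.2%), with a median of 0, a highest value of 1137 and a mean of 79.4 ± 199. Both reached their highest value in cell 18, the cell with the most gene counts and the fewest detected genes of those kept.

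**Figure D1:**
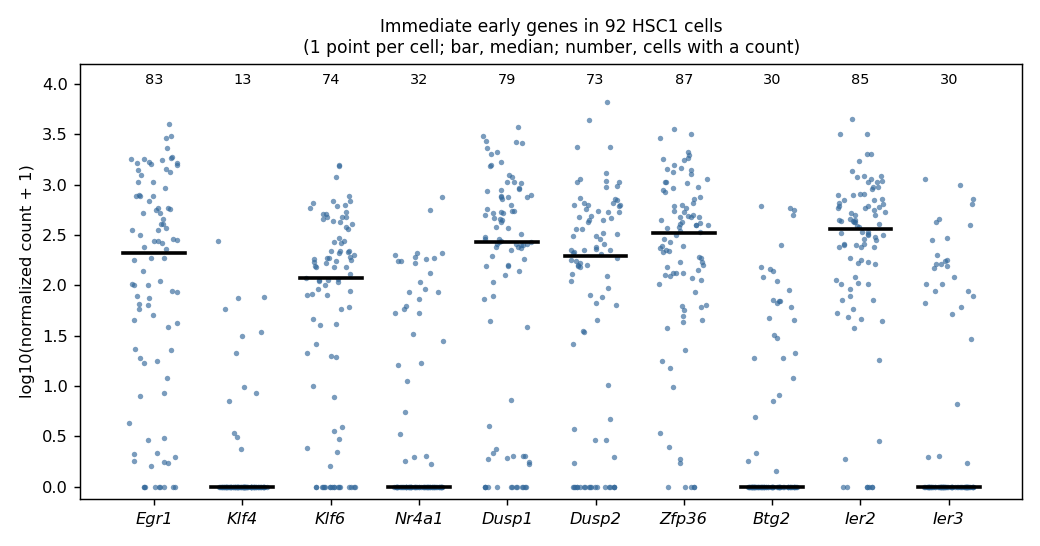
Normalized counts of the 10 members in the 92 kept cells, as log10(normalized count + 1) on the vertical axis, with 1 point per cell, a bar at the median and the number of cells with a count above each gene. The medians of Klf4, Nr4a1, Btg2 and Ier3 lie at 0, and those of the other 6 members between 117 and 360.

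Levels of different genes were compared per kb of transcript. The order of the mean levels was Ier2 (370 normalized counts per kb), Dusp1 (286), Dusp2 (274), Zfp36 (203), Egr1 (125), Ier3 (70.2), Klf6 (52.5), Nr4a1 (16.6), Btg2 (15.1) and Klf4 (2.12). The SD of the difference within a cell was larger than its mean for all 9 neighbouring pairs, though the direction within a cell was more uniform for some. Zfp36 was above Egr1 per kb in 59 cells and below it in 33, Egr1 above Ier3 in 64 and below it in 22, and Klf6 above Nr4a1 in 63 and below it in 18. Nr4a1 was above Btg2 in 29 cells and below it in 23, Btg2 above Klf4 in 28 and below it in 10, and Dusp2 above Zfp36 in 45 and below it in 46. Ier2 was above Dusp1 per kb in 55 cells and below it in 36. Dusp1 and Dusp2 were close, with Dusp1 higher in 45 cells and lower in 44. Ier3 was above Klf6 on average while it was below it in 55 cells. The 9 highest cells carried 73.2% of the Ier3 counts and 40.6% of the Klf6 counts.

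To ask which members varied between cells by more than technical noise, the squared coefficient of variation (CV2) of each gene was set against the value expected from ERCC spike-ins, RNAs added to each well. By a chi-square test against that value, with Benjamini-Hochberg adjustment over 21211 genes, 7 of the 10 members were called variable at an adjusted p under 0.1, against 560 genes or 2.64% of all tested. Dusp2 stood furthest above the technical value, with a CV2 of 7.06 times it (adjusted p = 3.80e-43). It was followed by Egr1 at 4.17 times (adjusted p = 3.58e-13), Dusp1 at 3.89 times (adjusted p = 6.63e-11), Ier2 at 3.44 times (adjusted p = 7.11e-08) and Zfp36 at 3.36 times (adjusted p = 2.54e-07).

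Ier3 at 2.39 times (adjusted p = 8.61e-08) and Btg2 at 1.68 times (adjusted p = 0.0128) were also called by this chi-square test. Klf6 at 1.80 times (adjusted p = 0.177), Nr4a1 at 1.38 times (adjusted p = 0.640) and Klf4 at 0.741 times (adjusted p = 1) did not pass. Among genes with a mean of at least 200, 5 of 6 members were called, against 61 of 1425 or 4.28%. Below that mean 2 of 4 members were called, against 2.52%. These p-values cover technical noise plus the minimum biological coefficient of variation of 0.5 among these cells, and not variation between mice. A gene that did not pass is thus not shown to lie within technical noise. With that minimum at 0.25, Klf6 was called (chi-square test, adjusted p = 0.00199) and Nr4a1 was not (adjusted p = 0.287). In simulated data the test made most of its false calls at low means, and the Btg2 mean of 41.6 lies below 66.99, the lowest mean allowed for spike-ins in the fit.

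Single cells and the handling of depth moved some of these values. Without cell 88, which held the highest Btg2 value, Btg2 was not called (adjusted p = 0.159), and without cell 89 the Dusp2 ratio was 4.198 and stayed called (chi-square test, adjusted p = 1.42e-16). Without cell 79, which held the highest Klf4 value, the Klf4 ratio was 0.258, and it was not called with or without that cell. When gene counts were thinned to the depth of the shallowest cell while spike-ins were kept as deposited, 2 members, Egr1 and Dusp2, were called. When spike-ins were thinned by the same share, a setting added after that result was seen, 7 were called.

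**Figure D2:**
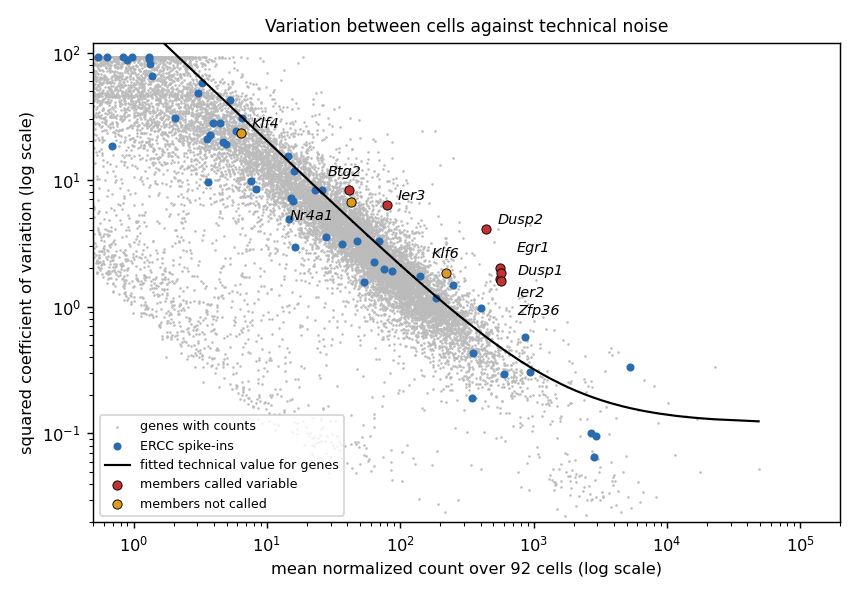
CV2 against the mean normalized count of genes with counts (grey), ERCC spike-ins (blue) and the 10 members over 92 cells, both on log axes, with the fitted technical value as a line. Dusp2, Egr1, Dusp1, Ier2 and Zfp36 lie at 3.36 to 7.06 times the line, while Klf4 lies below it at 0.741 times.

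The high values of the members were concentrated in few cells. For the 6 members with a mean of at least 200, the 9 highest cells carried 39.3% to 52.5% of all normalized counts of the gene, against a median of 25.4% and a 95th percentile of 36.6% over 1425 genes of at least that mean. The 9 highest cells of these 6 members were partly shared, though no reference for sharing between unrelated genes was computed. Of the 92 cells, 63 were among the highest for no member, 13 for 1, 9 for 2, 5 for 3 and 2 for 4. The 2 cells were cell 85, which was high in Dusp1, Dusp2, Zfp36 and Klf6, and cell 18, which was high in Egr1, Ier2, Zfp36 and Klf6. Cell 18 also had the most gene counts and the fewest detected genes of the kept cells.

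Every kept cell held counts of at least 3 members and no cell of more than 9, with a median of 6, where 1 count was enough. Counted cells with fewer than 10 counts numbered 12 for Egr1, 11 for Dusp1, 8 for Klf6, 7 for Dusp2 and 6 each for Nr4a1 and Btg2. They numbered 5 each for Zfp36 and Klf4, 4 for Ier3 and 2 for Ier2. The summed normalized counts of the members ranged over 105 to 16166 with a median of 2044. They made up 0.00717% to 0.971% of the gene counts of a cell, with a median of 0.126%. Cell 89 had the highest sum, with 6595 for Dusp2, 3188 for Ier2 and 2656 for Dusp1, and it was at 0 for Klf4, Klf6 and Ier3. Cell 35 had the lowest, with 81.9 for Klf6, 21.9 for Zfp36, 0.810 for Egr1 and 0 for the other 7 members. The members thus differed between single cells in which of them were high as well as in their sum.

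Relations between members across the 92 cells are given as a description, as Pearson's r on log10(normalized count + 1). The cells share a population and their depths differ, so no p is given. The 45 pairs of members had a median r of 0.105 and 35 were positive, against a median of 0.0106 over all pairs of 9754 genes counted in at least 23 cells. Of the 45, 6 were over 0.3, against 0.36% of all pairs. The closest pair was Ier2 with Dusp2 (r = 0.41, rho = 0.42).

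Egr1 was related to Dusp1 (r = 0.36), Ier2 (r = 0.36) and Zfp36 (r = 0.35), and Zfp36 to Klf6 (r = 0.35) and Ier2 (r = 0.34). Among the 6 members counted in at least 46 cells, all 15 pairs were positive with a median r of 0.196, against 0.0118 over all pairs of 6179 genes counted as often. The 2 phosphatase genes had an r of 0.15 with each other, and the 2 Krüppel-like genes one of 0.11. Dusp1 and Btg2, whose promoters hold the full cyclic AMP element, had an r of 0.29. Dusp1 and Zfp36, whose promoter has no such element in the window, also had an r of 0.29. A link between the element and these relations was not tested.

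Ier3 stood apart from the other members. Its r with the mean z score of the other 9 was -0.09, against 0.48 for Ier2, 0.47 for Zfp36, 0.43 for Egr1, 0.33 for Dusp1, 0.27 for Dusp2, 0.22 for Klf4 and Klf6, 0.13 for Nr4a1 and 0.12 for Btg2. The lowest r of any pair was that of Ier3 with Btg2, at -0.20, and 6 cells held counts of both. A weak r of genes counted in so few cells is no finding by itself.

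**Figure D3:**
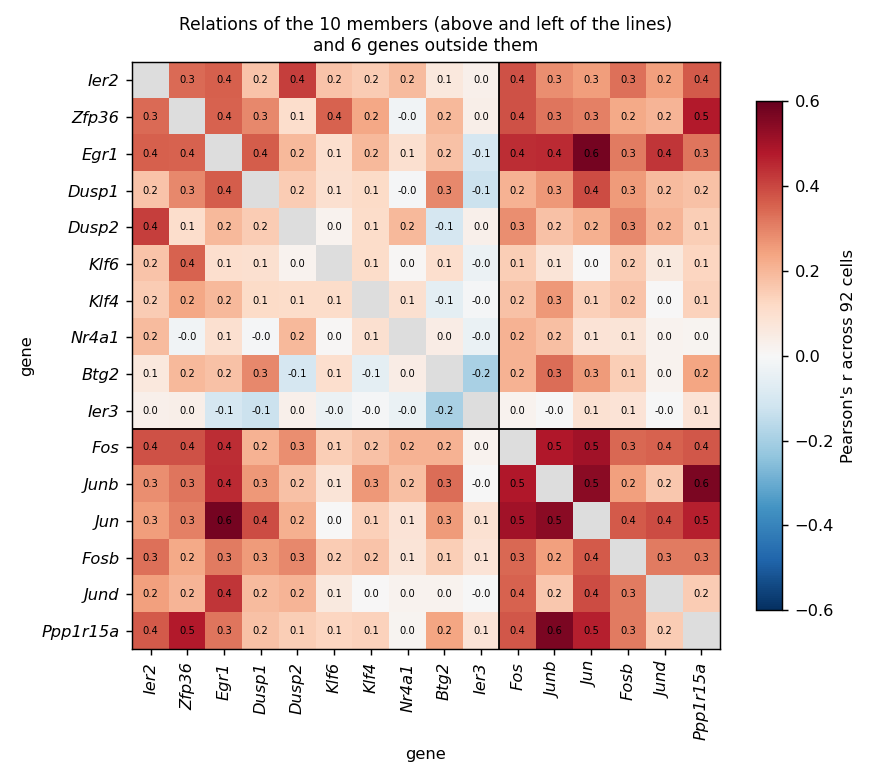
Pearson's r across 92 cells for each pair among the 10 members and 6 other genes (Fos, Junb, Jun, Fosb, Jund and Ppp1r15a), as colour from -0.6 to 0.6 with r to 1 decimal in each cell of the map. Ier2, Zfp36 and Egr1 are red against most of the other genes shown, while every value in the row of Ier3 is between -0.20 and 0.09.

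The mean z score of the 10 members, the member score, was used to find genes with a similar pattern among 9745 other genes counted in at least 23 cells. Of the 10 closest, 5 were genes of the immediate early class. These were Fos at 0.54, Junb at 0.52, Jun at 0.51, Ppp1r15a at 0.46 and Fosb at 0.45, against a median of -0.0022 and a 99th percentile of 0.24 over the 9745 genes.

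Genes outside the immediate early lists included Ddhd2 (r = 0.40), Ccdc117 (0.39), Gm10621 (0.36) and Tle2 (0.35). The lowest values belonged to Mesdc1 (-0.42), Gm10247 (-0.38), Hnrnpab (-0.38), Luc7l3 (-0.36) and Gmppb (-0.33). Of these, Gm10247 averaged only 1.04 normalized counts and was counted in 27 cells, Mesdc1 was counted in 27 and Gmppb in 23. The closest genes of single members differed. Each is the largest of many values, and no reference for such a largest value was computed. Klf4 was counted in only 13 cells. Egr1 was closest to Jun (r = 0.58) and Zfp36 to Ppp1r15a (0.47), which encodes a phosphatase subunit of the stress response. The genes closest to Ier3 (Crat, 0.38), Nr4a1 (Lin52, 0.43), Btg2 (Lrrc36, 0.42), Dusp1 (Pla2g15, 0.41), Dusp2 (Zfp608, 0.37) and Klf4 (Gtf2ird2, 0.40) were on no immediate early list.

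**Figure D4:**
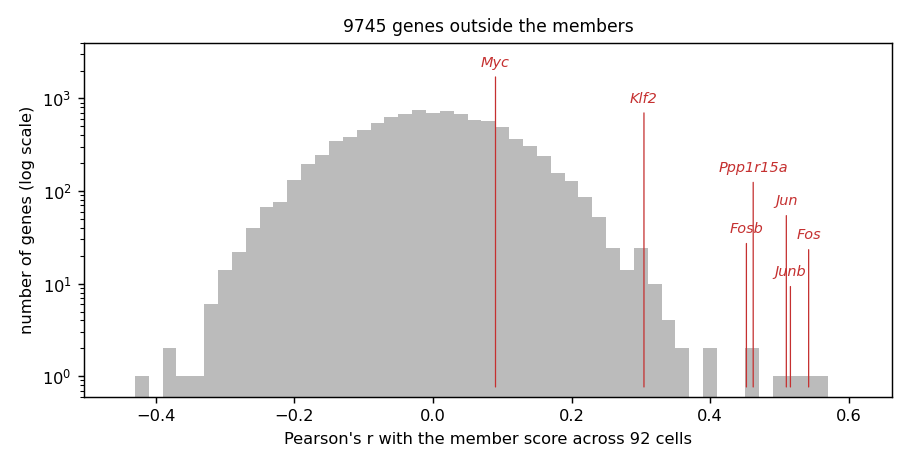
Number of genes (log scale) by Pearson's r with the member score across 92 cells, over 9745 genes outside the members, with named genes marked in red. Fos, Junb, Jun, Ppp1r15a and Fosb lie at 0.45 to 0.54, beyond the 99th percentile of 0.24, Klf2 lies at 0.30, and Myc lies within the bulk at 0.09.

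The 9 AP-1 genes, which encode the Fos and Jun proteins and their relatives, followed the member score as a list. The r between both scores was 0.59 (rho = 0.55), and 8 of the 9 genes had a positive r, against 49.3% of the 9745 genes. The 9745 genes were counted in at least 23 cells, while Fosl1, Fosl2 and Atf3 were counted in fewer. By gene it was 0.30 or more for Fos, Junb, Jun, Fosb and Jund. It was 0.16 for Fosl1, 0.06 for Batf, 0.0028 for Atf3 and -0.11 for Fosl2. Fos averaged 934 ± 1960 and reached 15460 in cell 89, the cell with the highest Dusp2 and Nr4a1, against a median of 246. Jun averaged 1005 ± 881 and Junb 481 ± 640. By the same chi-square test, 2 of the 9, Fos and Junb, were called variable, against 2.64% of all genes tested. The 3 cells with the lowest member score, cells 35, 22 and 80, were each at 0 for Fos and Junb.

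**Figure D5:**
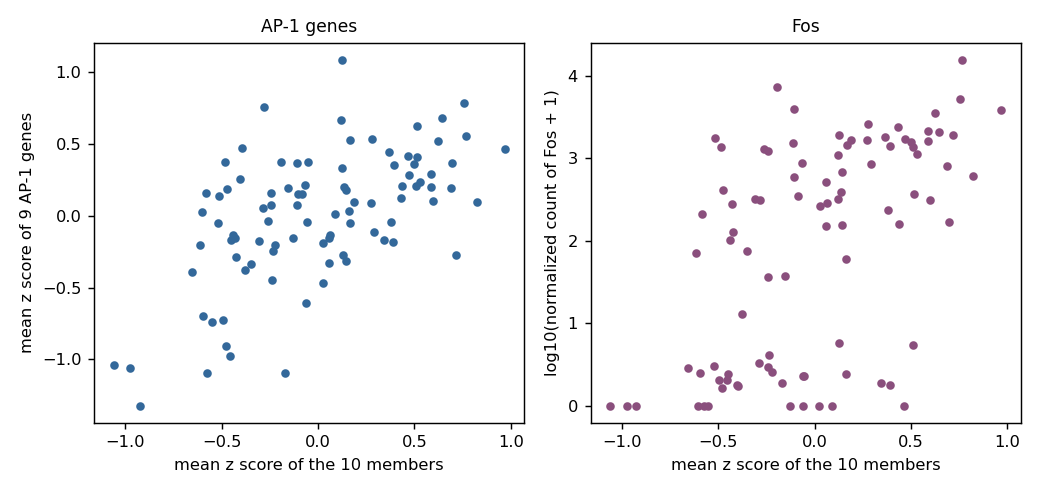
Member score of each of the 92 cells (horizontal) against the mean z score of the 9 AP-1 genes (left panel) and against log10(normalized count of Fos + 1) (right panel), with 1 point per cell. The points rise from left to right in both panels, at r = 0.59 for the AP-1 genes and r = 0.54 for Fos.

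Other immediate early genes followed less closely. The list of 25 had 22 with counts, of which 14 had a positive r with the member score, against 49.3% of the 9745 genes. Of the 22, 4 were called variable, against 2.64% of all genes tested: Ppp1r15a, Myc, Klf10 and Sgk1. The r of the mean z score of the list with the member score was 0.32. Myc, at 355 ± 567, had an r of 0.09, Klf10, at 240 ± 346, one of -0.01, and Nfkbia, an inhibitor of NF-kappaB at 322 ± 335, one of -0.0041. Myc and Klf10, both called variable, thus had almost no relation to the member score.

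The calls among close relatives of the members are read against the 2.64% called over all genes, so that counts of 0 in lists of this size are no result about them. By the same chi-square test 0 of the 10 other DUSP genes with counts were called, also 0 at an unadjusted p under 0.05, and the highest mean was that of Dusp6, an ERK phosphatase, at 89.1 ± 145. Of the 6 relatives of Zfp36 and Btg2 with counts, 0 were called and 0 had an unadjusted p under 0.05, and Zfp36l2 averaged 430 ± 281 in 91 cells (r = 0.29 with the member score). Of 14 other Krüppel-like genes 2 were called, Klf8 and Klf10. Egr2, Egr3 and Ier5l had no counts in any kept cell, and Nr4a2, a receptor related to Nr4a1, was counted in 14 cells. Of the 19 upstream kinases and factors of the MAP kinase, SRF and CREB pathways 0 were called and 0 had an unadjusted p under 0.05, and the r of their mean z score with the member score was 0.00.

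The member score was also set beside technical measures and other cell types. Its r was 0.14 with the log10 of gene counts, -0.01 with that of detected genes, 0.00 with the ERCC share and -0.09 with the mitochondrial share. Of single members, Klf6 had the r of largest size with detected genes, at -0.26. The list scores of stem cell, megakaryocyte, erythroid, granulocyte and monocyte, B cell, T and NK cell and endothelial markers had an r of -0.08 to 0.18 with the member score. That of the heat shock genes was -0.09, that of G1/S genes -0.15 and that of G2/M genes 0.01. With ERCC size factors the heat shock, G1/S, megakaryocyte and erythroid values changed sign. The part of these measures in the member values was not tested further.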

How the data were processed

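Single-cell RNA-seq libraries of 96 HSC1 cells were made by the method of Picelli et al. with ERCC spike-ins. The deposited values are raw read counts per gene, made by the authors with no normalization and no unique molecular tags. STAR 2.3.0 for alignment, HTSeq 0.6.1 for counting, SAMtools 0.1.18 and the mm10 build are named in the submitters' processing notes. The annotation version is not given in the sources used here.

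Cells over 3 scaled median absolute deviations (scale 1.4826) below the median in gene counts or detected genes, or above it in ERCC share, were left out (cells 1, 2, 6 and 36). Size factors were medians of ratios over 602 genes and, for spike-ins, 8 ERCC RNAs. Technical CV2 was a gamma fit with identity link on 16 spike-ins whose means were 66.99 or more (constant 0.120, slope 189.8), followed by the chi-square test that Brennecke et al. described, at a minimum biological coefficient of variation of 0.5. Relations used a pseudocount of 1. Steps were tested on simulated data. The scripts ran in Python 3.11.15 with scipy 1.17.1, pandas 2.3.3, matplotlib 3.10.9 and numpy 2.4.6.

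The members and lists were chosen with earlier results of these data known. Named genes are the members, genes of the related lists, the 10 genes outside those lists closest to the member score, the 5 lowest, and the 3 closest to each member. Alternatives were other cell filters, size factors, noise settings, minimum means, thinning, pseudocounts, ranks and left-out cells. Some genes that this rule takes are not reported here.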

Additional observations from a re-analysis of the deposited data

Results flagged for a closer look

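Member counts were also present in 2 of the 4 cells that the technical filters left out, above the 3 counts that a value of 0 allows by counting error alone. Cell 36, left out for its ERCC share of 2.88%, held 7295 counts of the 10 members among 4948251 gene counts, of which 3942 belonged to Ier2 and 1371 to Dusp1. Cell 1, left out for its 633845 gene counts, held 690 member counts, of which 253 belonged to Egr1 and 190 to Zfp36. The other 2 cells left out held 3 and 1 member counts. These cells enter none of the values of the report.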

How the results depend on the processing

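The number of members called variable was 7 of 10 and stayed between 7 and 9 under the other settings that tested all 10, except that it was 2 with gene counts thinned and spike-ins as deposited. Thinning gene counts alone lowers the gene means and not those of the spike-ins, and with both thinned, a setting chosen after seeing the data, the number was 7 of 10 and 655 genes in all. It was 6 of the 7 members with means of at least 50 and 5 of the 6 with means of at least 200. Over all genes, the count of 560 became 1047 with ERCC size factors, 1330 with spike-ins above the 50th percentile, 297 with means of at least 50, 65 with means of at least 200 (chosen after seeing the data) and 64 with gene counts thinned. Nr4a1 and Klf6 were called with ERCC size factors (chi-square test, adjusted p = 0.0780 and 0.0596) and with spike-ins above the 50th percentile (adjusted p = 0.00156 and 0.00274). Leaving out each of the 92 cells in turn gave 6 to 8 members called and 466 to 657 genes in all, and Klf6 was called in 9 of these fits. The r of the member score with the heat shock score was 0.119 with ERCC size factors and 0.0189 with all cells of at least 100000 gene counts. With ERCC size factors it was 0.00798 with the G1/S score, 0.0859 with the megakaryocyte score and 0.103 with the erythroid score, and the cause of these changes of sign was not tested. The median r over the 45 pairs stayed between 0.0900 and 0.133, and the r with the AP-1 score between 0.549 and 0.622. No paired analysis was possible because there was 1 group. The values of Klf4, Nr4a1, Btg2 and Ier3 rest on the fewest counted cells, 13 to 32. The part of depth in their values of 0 was not tested.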
